A study of Mus musculus with 1047 samples.

Results

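Droplet columns of the Apoe knockout experiment were compared in 2 sets, 1085 cells whose column names start with L7 and 1645 cells whose names start with L8. Together they were 2730 of the 13954 cells of that table and of the 36189 cells in all tables of the study. The labels list 4 libraries for the table, all from male mice of strain B6.129P2-Apoetm1Unc/J with the genotype ApoeKO, aged 18 months, each from white matter pooled over 2 mice. Brain tissue was perfused, micro-dissected and dissociated, myelin was removed with beads, no sort was named, and cells were run on 3′ droplet chemistry. No label ties a column prefix to a library, a pool or a genotype, so L7 and L8 are named by their prefix only, and each side counts as 1 library. The pair was proposed because L7 holds nearly no Apoe molecules and L8 does. There is therefore no test between the sides. Intervals are 95% and cover counting error only, and the spread between mice is unknown.

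Apolipoprotein E is a secreted lipid carrier. In the brain it moves cholesterol and phospholipid between cells, it is made mainly by astrocytes, and microglia that take up myelin or plaque lipid are known to raise it together with lipid and lysosomal genes. Such cells are called disease-associated microglia, in short DAM, and they are marked by Lpl, a lipase that releases fatty acids from lipoproteins, Spp1, a secreted phosphoprotein, and Axl, a receptor for dying cells. Resting microglia are marked by P2ry12, a nucleotide receptor.

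Apoe lies on the minus strand of chromosome 7. The 300 bases around its most upstream RefSeq start, 250 before and 50 after it, are shown because the L7 columns differ from the L8 columns first of all at this gene. They span chr7:19699139-19699438 in GRCm38.p6, the mm10 build, and are printed along the transcribed strand.
Apoe promoter: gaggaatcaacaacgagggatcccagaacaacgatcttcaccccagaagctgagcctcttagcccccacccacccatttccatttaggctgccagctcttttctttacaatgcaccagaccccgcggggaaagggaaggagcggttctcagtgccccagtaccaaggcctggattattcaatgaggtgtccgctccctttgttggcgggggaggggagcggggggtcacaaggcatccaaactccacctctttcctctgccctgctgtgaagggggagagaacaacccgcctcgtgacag
A search for the letters TATAAA on both strands found 0 matches in this window, so no base is in capitals. Of 32851 RefSeq promoter windows of the same length, 13.6% hold these letters. RefSeq lists 3 Apoe starts. The window of another, chr7:19698572-19698871, holds 2 matches that overlap, 1 on each strand, and the remaining window holds 0. The 3′ reads of this assay report the end of the transcript and not which start was used. The labels do not say which part of the gene the strain lacks, so the count does not by itself show a genotype.

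Over all cells, L7 held 121 Apoe molecules among 6833378 unique molecular identifiers (UMIs, counted transcripts) and L8 held 41846 among 6749778. The level was 0.177 per 10000 UMIs in L7 (interval 0.147 to 0.212) and 62.0 in L8 (61.4 to 62.6), a ratio of 350.1 (292.9 to 422). This is the difference the pair was chosen on and is given as a description. An Apoe UMI was found in 68 of 1085 L7 cells and in 1324 of 1645 L8 cells. No L7 cell held more than 7 Apoe UMIs, and the richest L8 cell held 566.

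By point value, astrocytes, ependymal cells, microglia and choroid plexus epithelium stood in the same order of Apoe level in both sets, although the levels were far apart. Classes were set from marker genes, as described with the composition. Astrocytes came first, with 57 UMIs and a level of 2.33 in L7 against 9920 UMIs and 204.5 in L8. Ependymal cells, which line the ventricles, came next with 46 UMIs and 0.290 in L7 against 11273 and 111 in L8. Microglia had 9 UMIs and 0.0544 (0.0249 to 0.103) in L7 against 15966 and 61.5 in L8. Choroid plexus epithelium, which makes cerebrospinal fluid, had 4 UMIs and 0.0180 (0.00490 to 0.0460) against 1717 and 16.8. The L7 intervals of microglia and choroid plexus overlap, so their order in L7 is not settled. Astrocytes and ependymal cells thus held 47.1% and 38.0% of the Apoe UMIs of L7.

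The ratio between the sets differed by class. It was 87.7 in astrocytes (67.6 to 116), 383 in ependymal cells (286.7 to 523) and 1130.1 in microglia (595 to 2472). T cells, which are not known for making Apoe, set the level that free RNA can give. In L8, 59 of 106 T cells (55.7%) held an Apoe UMI at a level of 2.99, so a share of cells with a UMI overstates the cells that make the gene there. In L7, 0 of 115 T cells held one, which at a limit of 3 counts allows 2.61% of cells with a UMI and a level of 0.0449. The upper 95% bounds are 3.16% and 0.0551. The L8 level was 66.6 times the level of 3 counts, or 53.3 times at the lower bound that counting error in L8 gives. The astrocyte level of L7 lay above the limit, in 28 of 84 cells, while the interval of the microglial level of L7, with UMIs in 6 of 325 cells, included it. In neuroblasts and neurons, L7 had 1 UMI, at a level of 0.179 (0.00453 to 0.997), and L8 a level of 3.96.

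**Figure D1:**
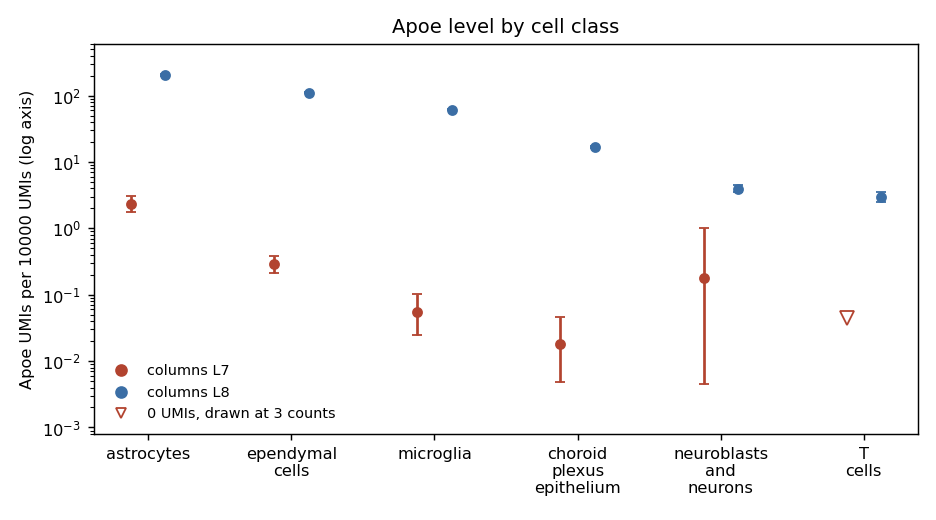
Apoe level (UMIs per 10000, log axis) in 6 cell classes of columns L7 (red) and L8 (blue), with 95% Poisson intervals. The triangle marks the 0 UMIs of L7 T cells, drawn at the level of 3 counts. L8 levels run from 2.99 to 204.5 and L7 levels stay at or below 2.33.

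Within L8, Apoe was concentrated in a minority of microglia. The median cell held 9.12 Apoe UMIs per 10000, with quartiles of 2.53 and 39.1 and a highest cell at 1419. The 73 cells with the most Apoe, of 727, held 72.0% of the microglial Apoe UMIs. Cells with an Lpl or Spp1 UMI had a median of 38.2 per 10000 (148 cells), and cells without had 6.47 (579 cells). Their median depths were 3804 and 3261 UMIs. In L7, 59 cells held an Lpl or Spp1 UMI and had 5 Apoe UMIs, and the other cells had 4. Cells with an Lpl or Spp1 UMI made up 18.2% of L7 microglia (14.1% to 22.8%) and 20.4% of L8 microglia (17.5% to 23.5%), and these intervals overlap. These shares are not matched for depth, since the median gated cell held 5186 UMIs in L7 and 3354 in L8. They therefore do not show that the sets are alike.

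The cell make-up differed between the sets. Microglia, taken as cells with P2ry12, Cx3cr1 and Trem2 summing to at least 30 UMIs per 10000, were 325 of 1085 L7 cells (30.0%, Clopper-Pearson interval 27.2% to 32.8%) and 727 of 1645 L8 cells (44.2%, 41.8% to 46.6%). Other cells took the class whose marker list was highest and reached 30 per 10000. Choroid plexus epithelium made up 30.2% of L7 (328 cells) and 16.3% of L8. Ependymal cells were 12.1% (131) and 6.87% (113), and T cells 10.6% (115) and 6.44% (106). Astrocytes were 7.74% (84) and 10.2% (167). The widest relative gap was in neuroblasts and neurons, with 11 cells (1.01%) in L7 and 116 (7.05%) in L8. No class could be given to 80 L7 and 113 L8 cells. Every remaining class held at most 8 cells on a side.

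**Figure D2:**
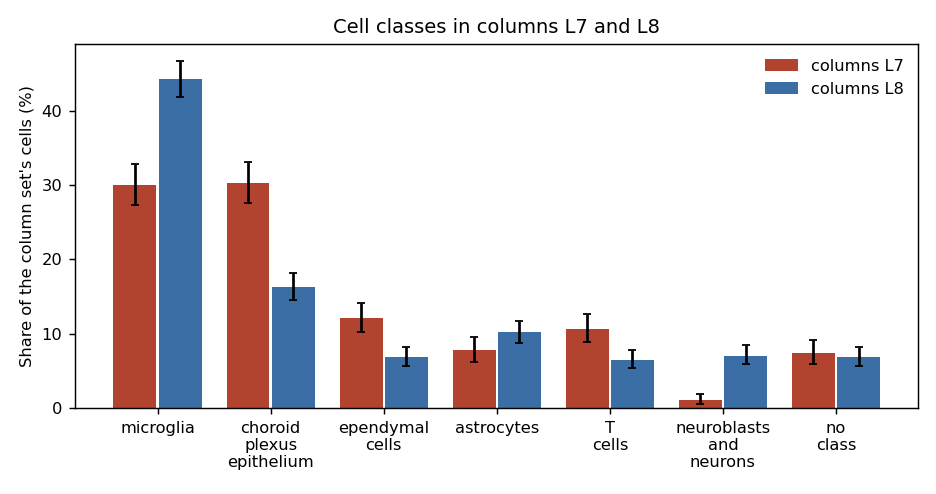
Share of cells (%) by class in columns L7 (red bars) and L8 (blue bars), with 95% Clopper-Pearson intervals as black lines. Microglia are 30.0% of L7 and 44.2% of L8, while choroid plexus epithelium is 30.2% and 16.3%.

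The classes rest on their markers in both sets. P2ry12 stood at 19.6 and 23.4 per 10000 inside the microglial gate of L7 and L8 and at 0.158 and 0.253 outside it. Tmem119, a microglial membrane protein the gate does not use, stood at 9.72 and 10.8 inside and at 0.0772 and 0.142 outside. Ttr, the thyroid hormone carrier of the choroid plexus, reached 1831 and 1282 in that class. The gate is a threshold on a range of values: 23 L7 and 18 L8 cells scored between 25 and 35. Among gated cells, 11 in L7 and 18 in L8 also reached 30 per 10000 of another class's markers. Scrublet called 6 of all 325 gated L7 cells and 8 of all 727 gated L8 cells doublets. Doublets were kept.

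Depth, free RNA and 1 sign of RNA quality moved with the sets. The median mitochondrial share of UMIs over all cells did not, at 3.27% in L7 and 3.26% in L8. The median cell held 4740 UMIs in L7 and 3272 in L8, and the median gated microglia held 5186 and 3354. Astrocytes went the other way, with medians of 1553 and 2354. The 5 choroid plexus markers summed to 6.86 per 10000 in L7 microglia and 2.22 in L8 microglia, of which Ttr was 6.54 and 2.18, and 1 of the markers was at 0 in L7. T cell markers summed to 0.0181 and 0.177 there, and dendritic cell markers were at 0 in both. Gm42418, a gene model that overlaps ribosomal RNA sequence, stood at 43.7 in L7 and 24.0 in L8 microglia, and at 217.1 and 79.9 in ependymal cells. The part of these differences in the results below was not tested. The sets shared 0 barcodes, and Xist, made from the inactive X chromosome of females, had 2 and 1 UMIs.

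In microglia the sets were close apart from Apoe. Of 3440 genes with a mean level of at least 0.5 per 10000, 6 were 2-fold or more higher in L7 (0.174%) and 4 were 2-fold or more lower (0.116%). The median log2 ratio over all 3440 was -0.05, with the 5th and 95th percentiles at -0.43 and 0.36. Over all cells, where the mix of classes enters, 37 of 3642 genes were that much higher (1.02%) and 64 lower (1.76%).

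**Figure D3:**
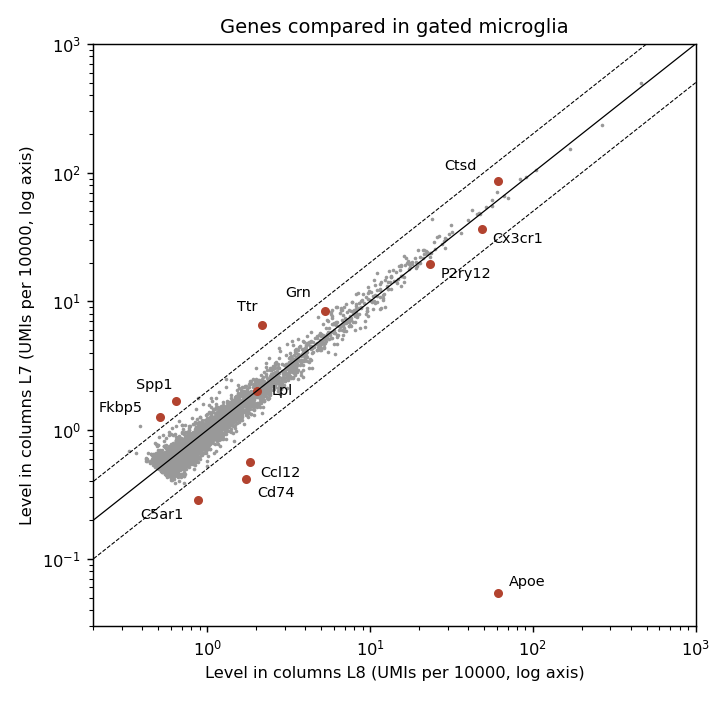
Level of each of 3440 genes in gated microglia of columns L8 (x) and L7 (y), in UMIs per 10000 on log axes. The solid line is equality and the dashed lines are 2-fold. Apoe lies at 0.0544 in L7 and 61.5 in L8, and most other genes lie between the dashed lines.

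The 4 genes lower in L7 were Apoe, C5ar1, Ccl12 and Cd74. C5ar1, the receptor for the complement fragment C5a, was found in 40 L7 cells, with 47 UMIs, and in 174 L8 cells. Its level was 0.284 against 0.882, or 3.104-fold lower in L7 (2.26 to 4.34). No cell held more than 4 C5ar1 UMIs in L7 or 7 in L8, so the difference was spread over cells. With each cell thinned to 2000 UMIs, which left out 84 of 325 L7 and 81 of 727 L8 microglia as too shallow, C5ar1 was detected in 6.64% (3.84% to 10.6%) and 15.0% (12.3% to 18.0%). Unthinned, the shares were 12.3% and 23.9%, and 0% of T cells held a UMI in either set. The cells that thinning left out differed in kind between the sets. Gated cells of a cluster led by Ccl3, Ccl4, Lpl and Spp1, described below, had median depths of 1938.5 UMIs in L7 and 3326 in L8. Cells of that cluster were therefore left out more often in L7, and every thinned share carries this limit.

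Ccl12, a chemokine that draws monocytes, had 93 UMIs in 49 L7 cells and 473 in 145 L8 cells. Its level was 0.562 against 1.82, 3.24-fold lower in L7 (2.59 to 4.09). The richest cells held 11 and 58 UMIs, and without the 3 richest cells of each set the levels were 0.411 and 1.40. Thinned shares were 7.47% (4.49% to 11.5%) and 13.8% (11.2% to 16.7%), against 15.1% and 19.9% unthinned and 0.870% and 0.943% of T cells.

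Cd74, the invariant chain of MHC class II, had 69 UMIs in 37 L7 cells and 451 in 105 L8 cells, 4.16-fold lower in L7 (3.23 to 5.45). Here 1 L8 cell held 119 UMIs and another 79, and without the 3 richest cells of each set the levels were 0.277 and 0.882. With the gate set on other microglial marker genes instead, the direction turned, to a log2 ratio of 0.16. The class II chains H2-Aa, H2-Ab1 and H2-Eb1, chosen after their values were seen and below the minimum level, rested on still fewer cells. H2-Aa had 144 UMIs in 13 L8 cells, of which 78 and 45 lay in 2 cells, and 5 UMIs in L7.

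Of the 6 genes higher in L7, Ttr, Fkbp5 and Tmem160 stayed 2-fold or more higher without the 3 richest cells of each set, and Spp1, Chchd10 and Vim did not. Ttr stood at 6.54 against 2.18, and it was also higher in L7 T cells (3.74 against 1.57), a class not known for making it. Fkbp5, a glucocorticoid-induced chaperone partner, was found in 119 L7 and 115 L8 cells at 1.26 and 0.512, 2.47-fold higher (1.98 to 3.09). Its thinned shares were 20.7% (15.8% to 26.4%) and 10.4% (8.13% to 13.0%), against 36.6% and 15.8% unthinned. T cells, with median depths of 5428 and 3312 UMIs, held a UMI in 20.0% and 9.43%. Tmem160, a mitochondrial membrane protein, stood at 1.77 and 0.874, 2.03-fold higher (1.70 to 2.42). After thinning its log2 ratio was 0.87, short of 2-fold. T cells held a Tmem160 UMI in 57.4% and 42.5%, more often than microglia (48.9% and 25.0%), so its microglial shares are not read.

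Spp1 showed how few cells can set such a value. It was found in 10 L7 cells and in 28 L8 cells. The summed levels were 1.67 and 0.643, but without the richest cell of each set they were 0.575 and 0.344, and without the 3 richest 0.1995 and 0.174. The share of microglia with a Spp1 UMI was 2.49% (0.919% to 5.34%) in L7 and 2.32% (1.31% to 3.801%) in L8 after thinning, 3.08% and 3.85% before, and 0% of T cells. Vim, an intermediate filament gene, had 58 of its 114 L7 UMIs in 1 cell, and without the 3 richest cells of each set its levels were 0.282 and 0.283. Chchd10, a mitochondrial protein gene, had 63 of its 178 L7 UMIs in 1 cell, with 0.316 and 0.348 left without the 3 richest cells.

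**Figure D4:**
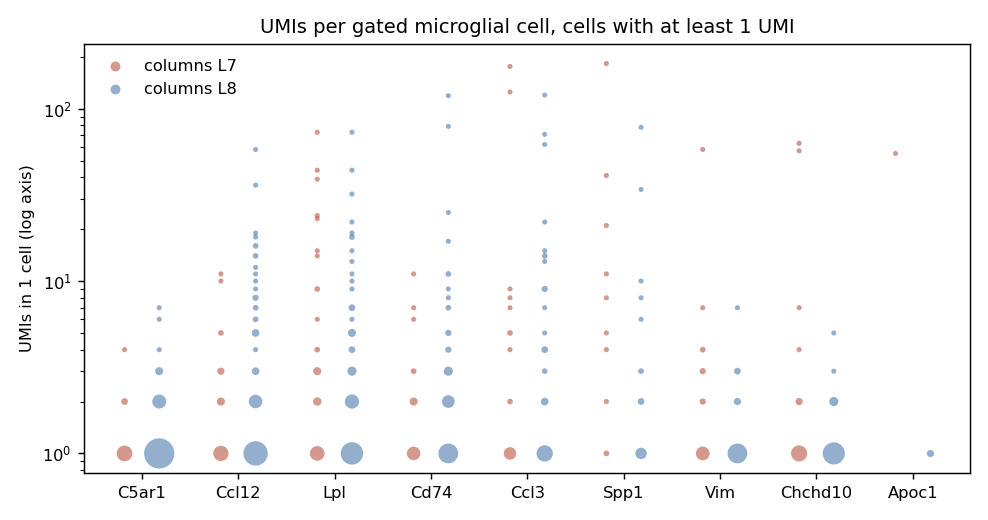
UMIs in single gated microglia (log axis) for 9 genes in columns L7 (red) and L8 (blue); each dot is 1 UMI count and its area grows with the number of cells holding it, cells with 0 UMIs left out. C5ar1 stays at or below 7 UMIs a cell, while single L7 cells stand far above the rest for Spp1, Vim and Chchd10, and 1 holds 55 Apoc1 UMIs.

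The other DAM genes, apart from Gpnmb, were present in both sets, and several rested on few cells. Lpl had 331 UMIs in 57 L7 cells and 529 in 140 L8 cells, at 2.00 and 2.04 per 10000, a log2 ratio of -0.03 (-0.23 to 0.18). Few cells set that ratio: without the 3 richest cells of each set the levels were 1.09 and 1.47, after thinning 1.18 and 1.86, and as a mean over cells the log2 ratio was -0.71. After thinning it was detected in 9.13% of L7 (5.81% to 13.5%) and 14.1% of L8 microglia (11.5% to 17.0%), against 17.5% and 19.3% unthinned and 0% and 1.89% of T cells. Thinning left out a larger part of the cluster led by Ccl3, Ccl4, Lpl and Spp1 in L7 than in L8. Axl had 71 UMIs in 44 cells and 105 in 82, at 0.429 and 0.404, a log2 ratio of 0.09 (-0.37 to 0.53). Axl was detected in 7.88% (4.81% to 12.0%) and 6.19% (4.46% to 8.34%) of thinned microglia, 13.5% and 11.3% unthinned, and 2.61% and 0.943% of T cells. Cst7, a cysteine protease inhibitor, stood at 0.387 and 0.316, and Lgals3, a galectin, at 0.635 and 0.527, but 54 of the 105 Lgals3 UMIs of L7 lay in 1 cell. Itgax, an integrin chain, stood at 0.224 and 0.131, with 19 of 37 L7 UMIs in 1 cell. Igf1 had 14 UMIs in 4 L7 cells and 2 in L8, and Gpnmb had 0 and 2, too few for a fold.

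Counted over 9 such genes (Lpl, Spp1, Axl, Cst7, Itgax, Gpnmb, Igf1, Lgals3 and Fabp5), cells with UMIs of at least 2 of them were 7.05% of thinned L7 microglia (4.16% to 11.1%) and 8.20% of thinned L8 microglia (6.21% to 10.6%). For at least 3 of them the shares were 2.49% and 2.48%. Unthinned, at least 2 were found in 14.5% and 14.7%. Overlap of these intervals does not show that the sets are alike, and a difference of several percentage points lies within them. Cells of the cluster led by Ccl3, Ccl4, Lpl and Spp1 were left out by thinning more often in L7. The thinned shares are therefore not matched for cell state. Unthinned, T cells held a Cst7 UMI in 52.2% of L7 and 29.2% of L8 cells. For Lgals3 the T cell shares were 17.4% and 20.8%, and for Fabp5 13.0% and 9.43%. Each of the remaining genes was found in at most 2.61% of T cells. The part of free RNA in the counts over 9 genes was not tested.

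The medians of the gene lists lay within 2-fold. The lists were written with earlier results of these data known, and each median stands beside -0.05 for all genes, of which 42.1% were higher in L7. Of 22 lysosomal genes compared, 21 were higher in L7, with a median log2 ratio of 0.23 and 0 past 2-fold. Ctsd, an aspartic protease, had 14320 and 15921 UMIs at 86.5 and 61.3, a log2 ratio of 0.50 (0.47 to 0.53). Grn, the progranulin gene, stood at 8.36 and 5.27, a log2 ratio of 0.67 (0.56 to 0.78). Ctsl, a cysteine protease, stood at 16.5 and 11.1, and Cd63, a late endosome protein, at 7.99 and 5.72.

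The summed lysosomal level was 489 per 10000 in L7 and 414 in L8. It was 487 and 413 without the 3 richest cells of each set. In the other classes the same list had a median of 0.00 in ependymal cells, 0.06 in astrocytes, -0.27 in T cells and 0.55 in choroid plexus. Thinned to 2000 UMIs, Grn was detected in 77.6% of L7 microglia (71.8% to 82.7%) and 62.7% of L8 microglia (58.8% to 66.4%), against 85.5% and 78.4% unthinned and 7.83% and 12.3% of T cells.

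DAM stage 1 genes, which rise early in that state, had 9 of 10 members higher in L7, with a median of 0.26, Apoe being the exception. Their summed level, Apoe included, went the other way, at 245.4 in L7 and 260.7 in L8. Apoe, on which the pair was chosen, gave 0.0544 and 61.5 of these sums. The turn of the sum rests on Apoe and shows nothing about the other members. Lyz2, lysozyme, stood at 11.6 and 8.49, and Timp2, a protease inhibitor, at 8.62 and 6.64. Of 12 DAM stage 2 genes compared, 9 were higher, with a median of 0.31 and 1 past 2-fold, which was Spp1. Cd9, a tetraspanin, stood at 22.4 and 16.2. The lysosomal list shares Ctsd with DAM stage 1 and Ctsl and Cd63 with DAM stage 2, so these lists are not independent. Glycolytic genes were higher in 11 of 11, with a median of 0.26, led by Eno1, the enolase gene, at 1.79 and 1.05. This was not particular to microglia, since 8 of 9 were higher in L7 T cells, with a median of 0.37. The list had medians of -0.20 in choroid plexus, 0.01 in ependymal cells and -0.21 in astrocytes. Cytosolic ribosomal protein genes were higher in 70 of 81, with a median of 0.16, and mitochondrially encoded genes in 9 of 11, with a median of 0.18.

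**Figure D5:**
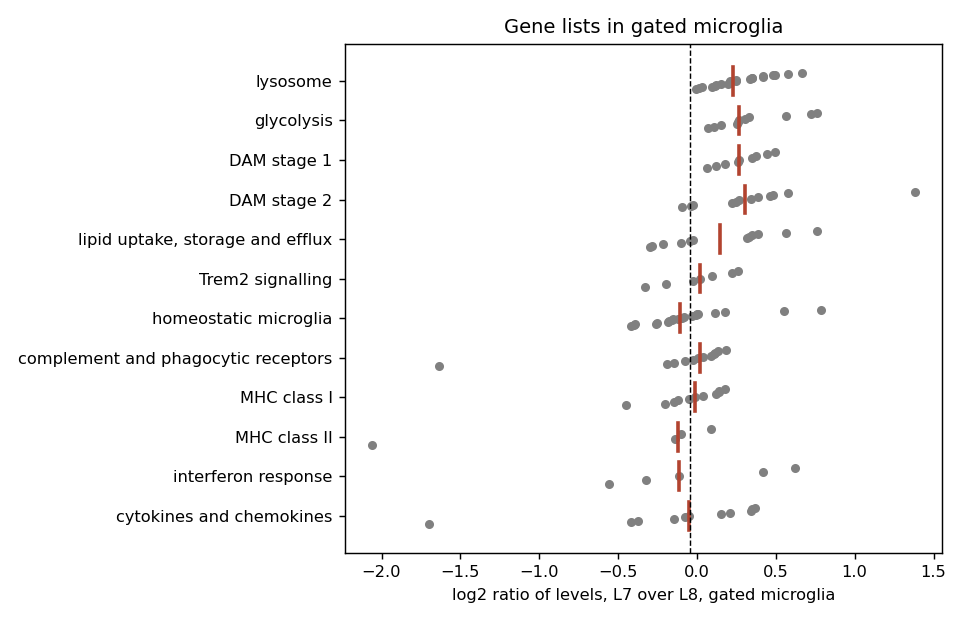
The log2 ratio of levels, L7 over L8, of the compared members of 12 lists in gated microglia. Grey dots are genes (Apoe, at -10.14, is off the axis), red bars are list medians with Apoe included, and the dashed line is the median of all genes at -0.05. The lysosomal, glycolytic and DAM lists sit right of that line, with medians of 0.23 to 0.31.

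Among genes for lipid uptake, storage and efflux, 6 of 12 were higher, with a median of 0.14. The efflux transporters led. Abca1, which loads cholesterol onto apolipoproteins, had 809 and 857 UMIs, at 4.89 and 3.30, a log2 ratio of 0.57 (0.43 to 0.71). Abcg1, which moves cholesterol to lipoprotein particles, was found in 124 and 173 cells, at 1.45 and 0.855, a log2 ratio of 0.76 (0.49 to 1.03). Abca1 was detected in 63.1% of thinned L7 microglia (56.6% to 69.2%) and 43.2% of L8 (39.3% to 47.1%), against 70.2% and 58.0% unthinned and 6.09% and 3.77% of T cells. For Abcg1, T cells held a UMI in 25.2% and 20.8%, so its microglial shares are not read. Npc2, a lysosomal cholesterol carrier, stood at 9.85 and 7.75. None of 19 cholesterol synthesis genes reached the minimum level, and together they stood at 2.19 and 2.38 per 10000 (interval of the ratio 0.807 to 1.05).

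Of 20 resting-state genes, 14 were lower in L7, with a median of -0.11, close to the -0.05 of all genes. Their summed level went the other way, at 838.7 in L7 and 824.5 in L8. P2ry12 and Cx3cr1, a chemokine receptor, at 36.8 and 48.4, belong to the gate and are given as a description. Mef2c, a transcription factor, stood at 8.70 and 11.5. Crybb1, a crystallin gene, and Fcrls, an Fc receptor-like gene, went the other way, at 2.43 against 1.41 and 8.61 against 5.86. Trem2 itself, a lipid-sensing receptor and also part of the gate, stood at 29.0 and 24.8, and its adaptor Tyrobp at 32.0 and 26.7. Of 7 Trem2 signalling genes, 4 were higher, with a median of 0.02.

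Of 12 complement and phagocytic receptor genes, 7 were higher, with a median of 0.02, and C5ar1 was the 1 past 2-fold lower. C1qa and C1qb, complement C1q chains, stood at 89.9 against 83.2 and 93.0 against 90.6. Of 11 MHC class I genes, 5 were higher, with a median of -0.01. H2-D1 stood at 8.20 and 7.24 and H2-K1 at 6.87 and 7.91, 2 class I heavy chains that share sequence, so their split is uncertain. Of 11 cytokine and chemokine genes, 5 were higher, with a median of -0.05. Ccl4 and Ccl3, related chemokines, stood at 3.37 against 2.64 and 2.20 against 1.70. Both turned 2-fold or more lower in L7 without the 3 richest cells of each set, to 0.178 against 1.34 and 0.332 against 0.734, since 313 of 557 Ccl4 UMIs of L7 lay in 1 cell.

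Interferon response genes were mostly too low in microglia to compare. Of 5 at the minimum level, 2 were higher, with a median of -0.12. Ifi27l2a stood at 1.58 and 1.02, and Ifitm3, which blocks virus entry, at 0.786 and 1.16. Ifit3 stood at 0.193 and 0.366. The 21 genes summed to 6.03 in L7 and 6.89 in L8 microglia. T cells differed from this: 14 of 14 interferon genes compared were higher in L7, with a median of 1.23, and the list summed to 28.9 and 15.8, or 23.7 and 13.3 without the 3 richest cells of each set. In T cells Ifit3 had 160 UMIs in 29 L7 cells and 33 in 18 L8 cells. Over all genes compared in T cells, 46 of 2898 were 2-fold or more higher in L7 (1.59%) and 27 lower (0.932%), with a median of 0.00. At any ratio, 50.8% of them were higher in L7. The T cells did not lie in the same clusters in both sets. The cluster led by Cxcl10 and Ifit1 held 14 L7 T cells (12.2%) and 4 L8 T cells (3.77%). The list stood at 152.8 and 91.5 there, from 1224 and 133 UMIs. In the cluster with the remaining T cells it stood at 12.0 in L7 and 12.9 in L8. Interferon genes themselves lead the former cluster, so the clustering left low levels in the remaining cells of both sets. The likeness there therefore shows nothing about those cells. The difference between microglia and T cells has no test with 1 library a side.

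Leiden clusters made without Apoe put the microglia into 3 groups, and C5ar1, Ctsd and Abcg1 differed in the same direction in both large ones. The first was led by P2ry12, Fcrls and Cx3cr1 and held 55.5% of 346 L7 and 63.7% of 749 L8 cells of these groups, with median depths of 5750 UMIs in L7 and 3321 in L8. The second was led by Ccl3, Ccl4, Lpl and Spp1 and held 43.6% (38.3% to 49.0%) and 34.2% (30.8% to 37.7%), with median depths of 1750 and 3225 UMIs. The part of depth in these shares was not tested, and genes that define the clusters differ between the sets. In L8, Apoe stood at 22.7 per 10000 in the first cluster and at 146 in the second, and in L7 at 0.0180 and 0.0756. C5ar1 stood at 0.251 in L7 and 0.801 in L8 in the first cluster, and at 0.340 and 1.21 in the second. Ctsd stood at 81.3 and 60.4, then at 98.0 and 65.9. Abcg1 stood at 1.48 and 0.944, then at 1.42 and 0.663. Lpl did not keep 1 direction, at 0.278 and 0.520 in the first cluster and 7.50 and 6.25 in the second. The smallest group, led by Ccl12 and interferon genes, held 3 and 16 cells.

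By size of ratio among genes at 2 or more per 10000, the genes higher in L7 after Ttr were Grn, Gnas, Dbi, Rpl35, Hsp90aa1, Ctsl, Abca1, Rpsa, Fcrls, Rpl10-ps3 and Atp5e. Gnas, a G protein subunit, stood at 7.61 and 4.82, and Hsp90aa1, a heat shock chaperone, at 3.62 and 2.41. Some of these genes were higher in other L7 classes too. In T cells Hsp90aa1 stood at 5.49 and 3.32 and Rpl35 at 9.91 and 5.95, and in astrocytes Abca1 stood at 5.65 and 2.91. Dbi, an acyl-CoA binding protein, stood at 4.31 and 2.78, and without the 3 richest cells of each set at 2.42 and 2.71. Rpl10-ps3 is a pseudogene whose reads may belong to its parent gene. The genes lower in L7 after Apoe included Luc7l2, Nav3, H3f3b, Ywhaz, Tmcc3, Lrrc58, Fam102b, Anxa3, Csmd3 and Tmem176b. Luc7l2, a splicing factor, stood at 3.90 and 6.13. H3f3b, a histone gene, stood at 6.27 and 9.32, and it was lower in L7 T cells too, at 7.80 and 11.2.

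The genes beside Apoe had no shared direction. Within 1 Mb of its start lie 64 other genes of the table, and 4 of them reached the minimum level over all cells, with log2 ratios from -0.19 (Vasp) to 0.45 (Trappc6a). Tomm40, a mitochondrial import channel 16.25 kb from Apoe, stood at 0.467 and 0.363 per 10000. Clptm1, a membrane protein gene, had 312 and 309. Apoc4, an apolipoprotein gene 17.7 kb away on the other side, had 22 UMIs in L7, all in 7 microglia and 12 of them in 1 cell, and 3 in L8. Apoc1, an apolipoprotein gene 6.53 kb away, had 70 and 78 UMIs over all cells. Its 55 UMIs in L7 microglia all came from 1 cell, against 5 UMIs in 5 cells of L8.

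In the other large classes Apoe was again lower in L7, and it was the 1 gene 2-fold or more lower in at least 3 of the 5 largest classes, of 1187 genes compared in all 5. There were 0 genes 2-fold or more higher in at least 3. Ependymal cells were closest, with 6 of 3825 genes higher (0.157%) and 3 lower (0.0784%). Choroid plexus had 20 of 2673 higher (0.748%) and 9 lower (0.337%). The higher genes there included Hspa5, Calr, Pdia3 and Hsp90b1, chaperones of the endoplasmic reticulum, with Hspa5 at 8.65 and 3.35. The choroid cells did not lie in the same clusters in both sets: the cluster led by Enpp2 and Ttr held 40.2% of L7 and 17.9% of L8 choroid cells, and the cluster led by Cox8b 46.3% and 70.1%. Summed within them, these 4 chaperones stood at 39.9 and 31.4 in the former and 4.45 and 3.01 in the latter. In a further choroid cluster, with 11.6% of L7 and 9.33% of L8 choroid cells, they stood at 19.6 and 11.6. The ratio was short of 2-fold in each, and the part of the cluster mix was not tested. The genes lower in L7 choroid plexus included Tmsb4x, an actin-binding gene, at 2.01 and 4.38.

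Astrocytes differed most, with 4.95% of 3923 genes higher and 86 lower (2.19%), over 84 and 167 cells and few UMIs. Of 5 reactive glia genes compared there, 5 were higher in L7, with a median of 1.42. Over all genes compared in astrocytes, 55.5% were higher in L7, with a median of 0.08. Gfap, an intermediate filament gene of reactive astrocytes, was found in 45 of 84 L7 cells and 53 of 167 L8 cells, at 9.25 and 3.22. C4b, a complement gene, had 136 UMIs in 51 cells and 118 in 51, at 5.57 and 2.43. The list summed to 25.2 and 9.48, or 21.4 and 6.14 without the 3 richest cells of each set. Here too the clusters differed: one without a class name, led by Daam2 and Col11a2 and with C4b, Cxcl10 and Bcan among its top genes, held 45.2% of L7 and 19.2% of L8 astrocytes, at median depths of 991.5 and 895.5 UMIs. The list stood at 37.9 and 15.8 in it, and at 21.8 and 9.31 in the largest astrocyte-like cluster, led by Cldn10 and Ntsr2, with 40.5% and 57.5%. Cxcl10, a chemokine also in this list, had 65 of 65 L7 UMIs in 1 cell. Hopx, a homeodomain gene, was lower in L7, at 1.31 and 7.15. In ependymal cells Gfap stood at 1.17 and 1.66, so the direction there was the other way.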

How the data were processed

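UMI counts per gene and barcode were deposited by the authors as raw counts. The submitters' processing notes name Cell Ranger 4 and the build mm10, without settings. The 20736 genes of the table were used as named there; Clec7a and Apoc2 were not analysed here. The table has 11224 further columns whose names show neither prefix, not used here. The pair, the members and the gene lists were chosen with earlier results of these data known. UMIs were summed over the cells of a class and divided by the class total (per 10000 UMIs). A gene was compared at a mean level of at least 0.5 and counted at a 2-fold ratio, with a side at 0 set to 3 counts. Intervals are exact Poisson, exact binomial (for a ratio of counts) and Clopper-Pearson, at 95%. UMIs of 1 cell are not independent, so the intervals are too narrow. Depth ran from 608 to 47844 UMIs per cell. Named genes were the marker and activation panels, up to 12 genes each way by ratio at a mean level of at least 2 per 10000 (unnamed gene models left out), and up to 4 members of each list by ratio; genes of other classes were chosen after their values were seen. Cells were not filtered further; doublets were called with Scrublet in scanpy 1.11.5 (11 in L7, 40 in L8) and kept, with their removal as an alternative. TMM factors came from edgeR 4.0.16. Leiden clusters used 2000 variable genes, 30 components and resolution 1, were named from the fixed markers, and a difference from the study's own cell types may come from these rebuilt names. Levels by class within clusters were added after the values were seen. The functions were tested on simulated data. Some genes that the naming rule takes are not reported here.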

Additional observations from a re-analysis of the deposited data

How the results depend on the processing

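No paired analysis was possible because each side is 1 library. The Apoe log2 ratio over all cells was -8.45, and -8.19 as a mean over cells; it stayed within its interval under the other alternatives. Microglia were 23.0% of L7 and 38.4% of L8 with the gate at 60, and in L8 46.9% with at least 1000 UMIs and 51.1% when cells were thinned before gating. The counts of 6 genes higher and 4 lower became 43 and 37 at 1.5-fold, 61 and 78 at a minimum level of 0.1, and 1 and 1 at a minimum level of 2. At 3-fold 1 gene was higher, and with the gate at 60, 2 were. Without the top cell of each gene 3 were higher. Without the top 3 cells, an alternative chosen like the former after seeing the data, 3 were higher and 7 lower, including all 4 of the main set. Thinned cells gave 7 higher, 2 of them shared with the main set (Fkbp5 and Ttr), and 11 lower, 4 of them shared. Of 96 named genes, 75 kept their direction under every alternative run and 21 did not. Among the named genes at 2-fold or more, directions turned for Cd74 (0.16, gate on other microglial marker genes), Spp1 (-0.30, gate at 60), Chchd10 (-0.14 without the top 3 cells, -0.38 with the gate at 60, -0.36 without doublets, -0.26 without gate cells of another class), Vim (-0.0074 without the top 3 cells, -0.33 with the gate at 60, -0.087 without doublets) and Igf1 (-0.89 without the top 3 cells). Of genes under 2-fold, Lgals3 ranged from -0.97 to 0.29, Fabp5 from -1.14 to 0.66, Itgax from -0.54 to 1.01, Dbi from -0.24 to 0.66, Stmn1 from -0.70 to 0.76 and Axl from -0.23 to 0.52. Lpl stayed below 0, down to -0.71. The cause was not tested. C5ar1 ranged from -1.79 to -1.38, Ccl12 from -2.25 to -1.04, Fkbp5 from 1.10 to 1.38 and the lysosome median from 0.22 to 0.25. No barcode exceeded 10% mitochondrial UMIs or was shared, so these alternatives changed nothing. Depth limits every gene below the minimum level.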
